A study of Mus musculus with 6 samples.

Results

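Art1, Art3 and Art5 encode members of the mono-ADP-ribosyltransferase family, and their RNA was measured in gastrocnemius, a calf muscle, of wild-type (WT) mice and of mice lacking the long noncoding RNA lnc-ORA (KO). They are 3 of 11815 genes in the deposited expression table, taken by gene symbol. They were selected on the difference between KO and WT seen in these same 6 libraries. Their differences between genotypes are therefore given as a description, with no test.

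The 3 WT libraries carry replicate numbers 2, 3 and 4 and the 3 KO libraries carry numbers 1, 2 and 3. KO mice were made on a C57BL/6 background by injecting Cas9 mRNA and a pair of guide RNAs into fertilized eggs, which removed 5147 bp holding the whole lnc-ORA transcript. The series text states an age of 15 weeks, in a phrase on the KO mice, and names no other age for the WT mice. The sources used here do not give the sex, the number of founders behind the KO line or whether WT mice were littermates. No label states that libraries came from separate mice, so every p-value measures only the spread between these libraries, which may be technical. The deleted locus was not analysed here, so the knockout itself was not checked. The labels state the purpose as a role of lnc-ORA in the change of muscle fibre types.

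Counted reads per library, recovered from the values, ran from 54370181 to 69693905. Values are RPKM, reads scaled to gene length and to the counted reads of the library, so levels can be set side by side between genes. The 10 most abundant genes took 44.43% to 48.26% of the reads of WT libraries and 50.19% to 53.9% of those of KO libraries. Summed RPKM of 14 skeletal muscle fibre markers was 139000 to 157000 in WT and 156000 to 171000 in KO, with the whole list in the table and no marker at 0 in all libraries. In whole tissue, fewer cells of a type and less RNA per cell cannot be told apart.

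ADP-ribosyltransferases of this family use NAD+ to attach a single ADP-ribose to arginine of target proteins, and act outside the cell or in the secretory pathway. Art1 is held at the muscle cell surface by a glycosylphosphatidylinositol (GPI) anchor and modifies integrin alpha7, a laminin receptor of muscle. Art5 is a secreted relative. Art3 is a GPI-anchored relative for which no arginine transferase activity is established.

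Art1 and Art5 lie next to each other on chromosome 7, on opposite strands, and Art3 lies alone on chromosome 5. In GENCODE M21 (GRCm38), Art5 spans chr7:102096879-102109489 on the minus strand and Art1 spans chr7:102101743-102113933 on the plus strand. The start of transcript Art5-204 is 1514 bases from the start of Art1, and the genes point away from each other. A coding and a noncoding transcript of Art5 start within Art1, so the gene bodies overlap, with 0 exon bases in common. Art3 spans chr5:92331827-92414628 on the plus strand. These coordinates are of GRCm38 only, whereas the submitters' processing notes name GRCm39.

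The 250 bases upstream of the RefSeq starts (GRCm38.p6) are shown for each gene because Art1 and Art5 start a short interval apart and both were lower in KO. Capitals mark matches, on either strand, to CANNTG (the E-box, bound by myogenic and many other factors), to its forms CAGCTG and CACGTG, and to TATAAA. Every CAGCTG or CACGTG is also a CANNTG.
Art5, chr7:102100230-102100479, minus strand: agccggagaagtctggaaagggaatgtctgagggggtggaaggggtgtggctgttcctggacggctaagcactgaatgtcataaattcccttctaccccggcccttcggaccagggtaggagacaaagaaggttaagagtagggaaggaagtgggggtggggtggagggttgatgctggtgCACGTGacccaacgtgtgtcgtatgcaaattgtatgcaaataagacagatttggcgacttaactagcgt
Art1, chr7:102101493-102101742, plus strand: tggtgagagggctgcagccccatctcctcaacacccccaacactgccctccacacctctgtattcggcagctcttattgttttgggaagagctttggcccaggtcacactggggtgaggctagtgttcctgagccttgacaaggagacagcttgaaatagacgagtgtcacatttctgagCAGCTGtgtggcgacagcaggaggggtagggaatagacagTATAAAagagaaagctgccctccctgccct
Art3, first of 3 starts, chr5:92331577-92331826, plus strand: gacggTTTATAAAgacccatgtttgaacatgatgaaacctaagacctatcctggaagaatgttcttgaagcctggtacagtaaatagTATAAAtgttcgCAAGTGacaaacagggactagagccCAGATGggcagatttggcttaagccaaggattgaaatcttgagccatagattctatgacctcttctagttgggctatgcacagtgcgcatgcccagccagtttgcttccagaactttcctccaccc

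The Art5 and Art1 windows each held 1 E-box at nearly the same distance from the start, but of different letters. In Art5 it was CACGTG at -69 to -64, a form found in 6.0% of 32817 RefSeq windows of the same length. In Art1 it was CAGCTG at -70 to -65, a form found in 13.0% of them, and Art1 also held TATAAA at -30 to -25. Any CANNTG was in 66.2% of all windows and TATAAA in 12.4%. The first Art3 window held 2 matches to CANNTG and 3 to TATAAA, of which 2 overlap, and its second start has TATAAA at -30 to -25 as well. The MEF2 element was in 2.9% of all windows and in none of the 5 windows of these genes. A match is a description of letters only.

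Art5 had the largest difference of the 3 genes. It stood at 11.6, 10.6 and 10.4 RPKM in WT replicates 2, 3 and 4 and at 3.46, 4.10 and 3.72 RPKM in KO replicates 1, 2 and 3. The groups did not overlap, and the lowest WT library was 2.54 times the highest KO library. These values rest on 1184 to 1665 reads in WT and 468 to 489 in KO. The group means were 10.9 ± 0.648 (SD, n = 3) and 3.76 ± 0.322 RPKM (SD, n = 3), 65.4% lower in KO. On the log2(RPKM + 1) scale, which understates changes of low genes, the difference was -1.32, the 26th lowest of the 7574 genes that reached 1 RPKM in at least 3 libraries. How many of the 7574 genes also had groups without overlap was not counted. The lack of overlap alone therefore does not set Art5 apart from other genes.

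Art1 was lower in KO by a smaller step. It stood at 26.7, 25.4 and 28.0 RPKM in WT replicates 2, 3 and 4 and at 18.0, 17.9 and 20.9 RPKM in KO replicates 1, 2 and 3. The groups did not overlap, and the lowest WT library was 1.21 times the highest KO library. Read counts were 3879 to 5223 in WT and 2800 to 3593 in KO. Means were 26.7 ± 1.29 (SD, n = 3) and 19.0 ± 1.70 RPKM (SD, n = 3), 28.9% lower in KO, with a difference of -0.47 on the log2(RPKM + 1) scale. That difference ranked 534 from the lowest of the 7574 genes. For Art1 too, the lack of overlap alone does not set the gene apart, as its share among all genes was not counted.

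Art3 overlapped between the genotypes. It stood at 21.4, 25.5 and 19.2 RPKM in WT replicates 2, 3 and 4 and at 17.0, 17.8 and 19.8 RPKM in KO replicates 1, 2 and 3. KO replicate 3 lay above WT replicate 4, and the other KO libraries lay below every WT library. Means were 22.0 ± 3.18 (SD, n = 3) and 18.2 ± 1.46 RPKM (SD, n = 3), 17.4% lower in KO, with a log2(RPKM + 1) difference of -0.26. That difference ranked 1676 from the lowest of the 7574 genes. WT replicate 3, where Art3 was highest, also had the lowest summed level of 9 slow fibre markers, at 204 RPKM. The sum was 1160 RPKM in WT replicate 2, 725 in WT replicate 4 and 354 to 574 in KO. WT replicate 2, with the highest sum, had more Art3 than WT replicate 4. Whether the slow fibre markers have a part in the Art3 value was not tested. Without WT replicate 3 the Art3 difference was -0.15.

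**Figure D1:**
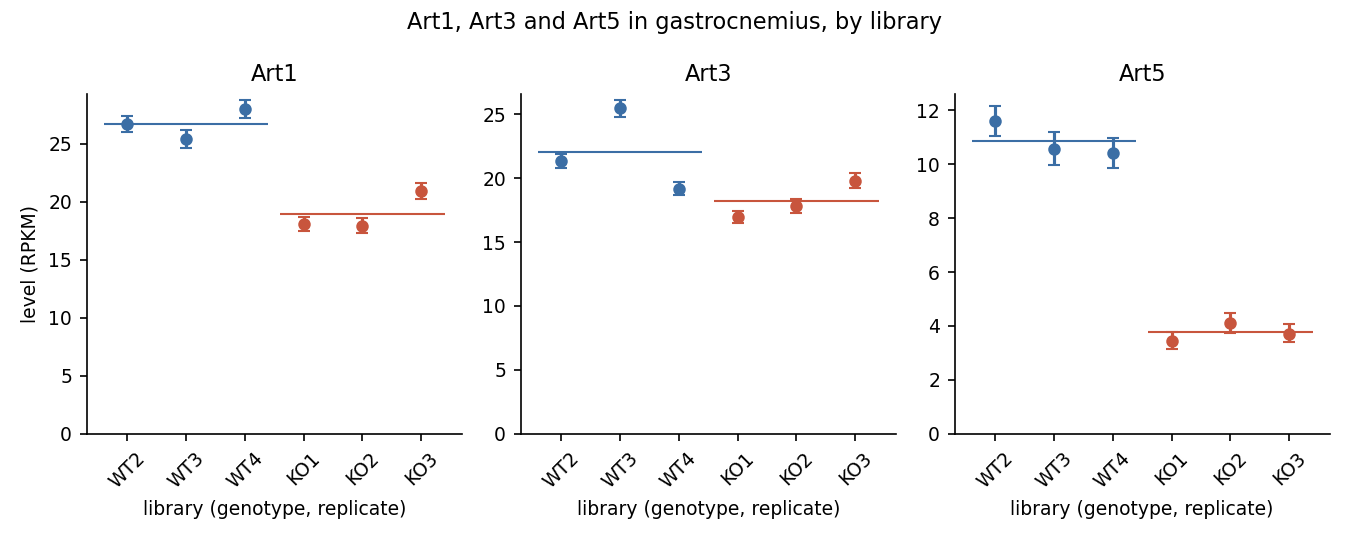
RPKM of Art1, Art3 and Art5 in each of 3 WT and 3 KO libraries (vertical axis, RPKM), with points for libraries, error bars for the exact Poisson 95% interval of each value and lines for group means. Art5 sits between 10.4 and 11.6 RPKM in WT and between 3.46 and 4.10 in KO, Art1 shows a smaller gap, and Art3 overlaps.

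The number of reads behind each value sets its counting error. Exact Poisson 95% intervals spanned 2.57% to 3.72% either side of the Art1 and Art3 values and 4.83% to 9.17% either side of the Art5 values. They cover counting error only. The coefficient of variation over libraries was 4.8% for Art1, 14.5% for Art3 and 6.0% for Art5 in WT, and 9.0%, 8.0% and 8.6% in KO. All 3 genes were above 1 RPKM in every library, so the filter on low values did not act on them.

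Many other genes were also lower in KO. With limma on log2(RPKM + 1), 1021 of 7574 genes were called lower (13.5%) and 290 higher (3.83%) at a Benjamini-Hochberg adjusted p of 0.05, and the median difference over all tested genes was -0.089. Relative to that median, Art5 was at -1.23, Art1 at -0.385 and Art3 at -0.167. Of all calls, 22.1% were higher; with equal library medians the share was 47.5%, and with totals that leave out the 10 most abundant genes it was 52.6%. With those scalings the median moved by 0.101 and 0.112, and the differences of Art5, Art1 and Art3 were -1.22, -0.37 and -0.15, and -1.19, -0.33 and -0.11.

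The authors' deposited table gives its own log2 fold changes, which were -1.13 for Art5, -0.27 for Art1 and -0.13 for Art3. The log2 ratio of mean RPKM was -1.53, -0.49 and -0.28. In this table the authors' value was above the ratio by 0.41 for Art5, against a median of 0.13 over tested genes, and 1.66% of tested genes had a larger gap. The cause of the gap was not tested.

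The share of the 3 genes that comes from Art5 was lower in KO. Art5 made 19.5%, 17.2% and 18.1% of their summed RPKM in WT replicates 2, 3 and 4 and 9.0%, 10.3% and 8.4% in KO replicates 1, 2 and 3. The summed RPKM was 59.6 ± 1.94 in WT (SD, n = 3) and 40.9 ± 3.13 in KO (SD, n = 3), with no overlap of the groups. How often sums of other genes were without overlap was not counted. The ratio of Art5 to its chromosome 7 neighbour Art1 was 0.408 ± 0.0324 in WT and 0.200 ± 0.0264 in KO, and the ratio of Art5 to Art3 was 0.500 ± 0.0736 and 0.207 ± 0.0212 (SD, n = 3 each). These ratios come from within a library, so they do not move with its scaling.

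**Figure D2:**
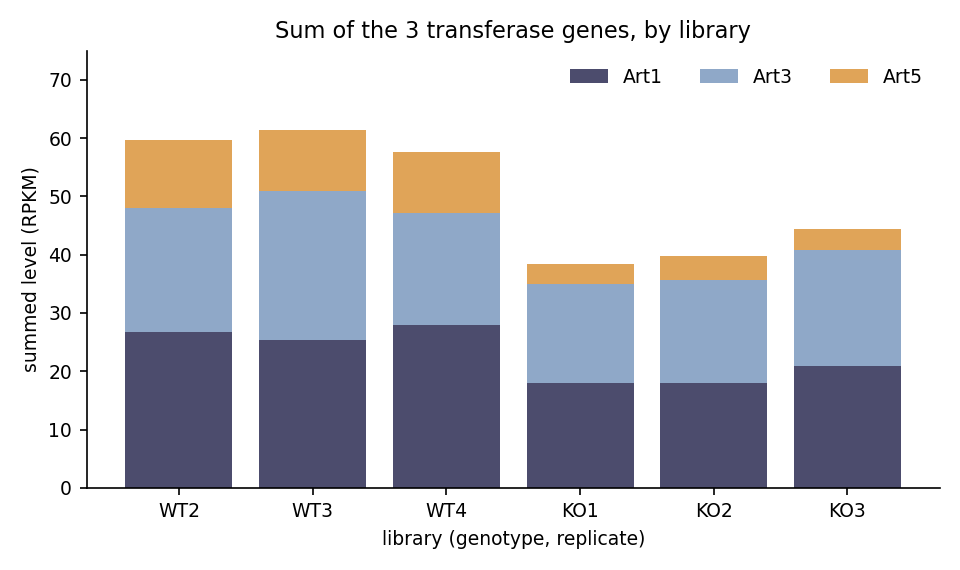
Levels of Art1, Art3 and Art5 stacked in each library (vertical axis, summed RPKM). The sum is 57.58 to 61.45 RPKM in WT and 38.47 to 44.45 in KO, and the top segment, Art5, takes 17.2% to 19.5% of it in WT and 8.4% to 10.3% in KO.

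Art1 was above Art3 and Art3 above Art5 in 5 of 6 libraries; in WT replicate 3 Art3 and Art1 were nearly equal, with a ratio of Art1 to Art3 of 0.997. Art1 and Art3 did not differ beyond their spread in WT, where that ratio was 1.25, 0.997 and 1.46 in replicates 2, 3 and 4. In KO it was 1.06, 1.01 and 1.06 in replicates 1, 2 and 3, and the group means differed by less than either SD. Art5 was below both in every library. The order of Art1 and Art3 also depends on the gene length used for RPKM. With the length of the longest coding transcript in place of all exons, Art1 stood at 52.6 ± 2.50 and Art3 at 54.1 ± 7.81 RPKM in WT (SD, n = 3), and Art1 at 37.4 ± 3.32 and Art3 at 44.7 ± 3.59 in KO. Art3 was then above Art1 in each KO library, while in WT the genes were at 52.6 and 52.6 RPKM in replicate 2, Art3 was higher in replicate 3 and Art1 was higher in replicate 4. Art5 stayed lowest, at 13.0 ± 0.757 in WT and 4.51 ± 0.387 in KO. In WT, 7.4% of all 11815 genes in the table, tested or not, were above Art1, 8.7% above Art3 and 15.0% above Art5.

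Art1 overlaps a gene on the other strand over a large part of its exons, taken over all its transcripts. It shares 1025 exon bases, 36.5% of its exon length, with Chrna10, a nicotinic acetylcholine receptor subunit gene that runs the other way. The only coding transcript of Art1 ends at base 102111156, before Chrna10 begins at base 102111266. The overlap lies in Art1 transcripts labelled as subject to nonsense-mediated decay. Of all 50-base stretches of Art1 transcripts, 33.1% also occur in Chrna10 transcripts. Art3 shares 133 exon bases, 3.4%, with Cxcl10, and none of the 2138 stretches of Art5 occur in another gene. The sources used here do not say whether counting used strand, so reads of Art1 and Chrna10 cannot be told apart where they overlap.

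Of the 20 genes of the table nearest to Art1 and Art5 or to Art3, 12 were tested and 3 were called, 2 lower and 1 higher. With 13.5% of all tested genes lower and 3.83% higher, counts this small are close to the background. Chrna10 stood at 3.61, 2.82 and 3.92 RPKM in WT replicates 2, 3 and 4 and at 1.88, 2.35 and 2.25 in KO replicates 1, 2 and 3, a log2 difference of -0.49 ± 0.11 (SE), adjusted p = 0.0238 with limma. Near Art3, the antisense RNA Gm43599 fell from 18.4 ± 2.67 to 12.6 ± 2.57 RPKM (log2 difference -0.53, adjusted p = 0.0491) and Stbd1, a glycogen-binding protein gene, rose from 12.2 ± 1.59 to 17.0 ± 0.344 (0.46, adjusted p = 0.0193; SD, n = 3 each). Gm43599 lies within Sdad1 on the other strand. Whether their exons overlap was not examined, and where they do, reads of that pair cannot be told apart either. Sdad1 stood at 3.03 ± 0.347 and 2.21 ± 0.404 RPKM in WT and KO (adjusted p = 0.0776). Of the tested genes beside Art5 and Art1, Xndc1, Rnf121 and Stim1 were not called. For Xndc1 the mean was 1.41 ± 0.131 RPKM in WT and 1.15 ± 0.126 in KO (log2 difference -0.16, adjusted p = 0.167 with limma). Rnf121, on the same side, had a higher mean in KO, 1.19 ± 0.0328 against 1.02 ± 0.0379 RPKM (0.12, adjusted p = 0.193), and Stim1, on the far side, was at 7.96 ± 1.09 in WT and 7.44 ± 1.52 in KO (-0.09, adjusted p = 0.685). Xntrpc, whose end is 15 bases from that of Art5, and Trpc2 were too low to test, with means of 0.678 and 0.827 RPKM in WT and 0.601 and 0.689 in KO. The Chrna10 call was lost without WT replicate 2 and without any 1 of the KO replicates, with an adjusted p of up to 0.0904. Gm43599 was lost when replicate 2 or 3 of WT, or replicate 1 or 3 of KO, was left out and with both other scalings, up to 0.162. Stbd1 was lost without WT replicate 3 and without each KO replicate in turn, up to 0.0866.

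**Figure D3:**
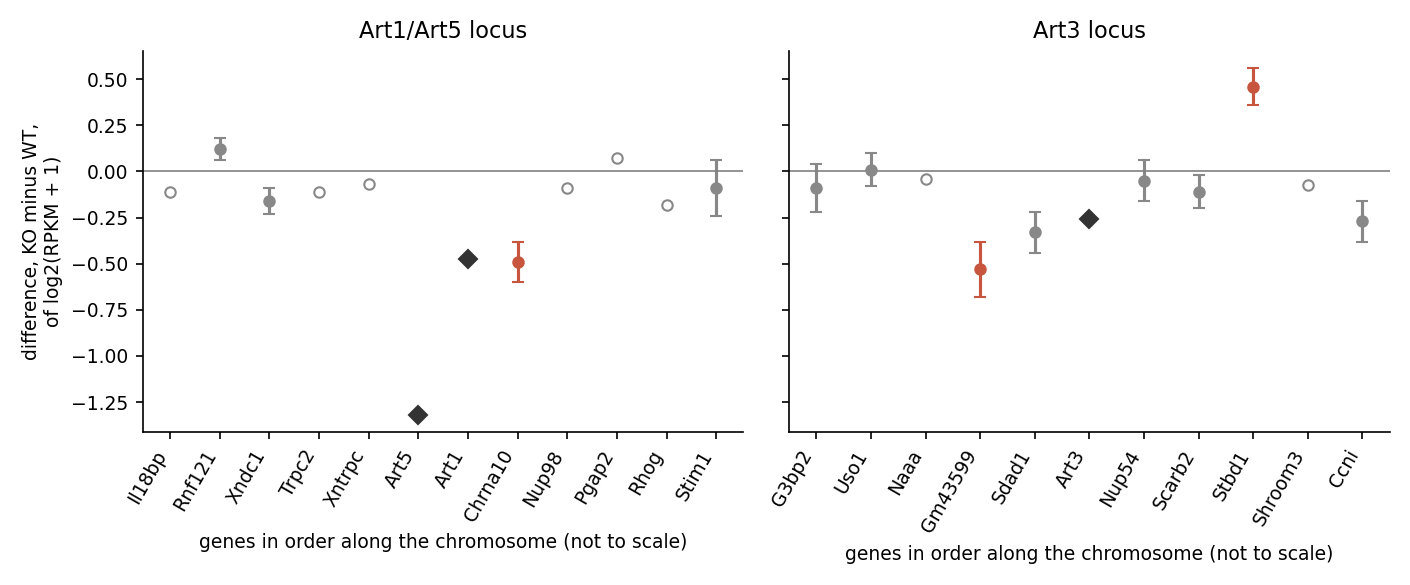
Difference between KO and WT on the log2(RPKM + 1) scale (vertical axis) for Art1, Art3, Art5 and the 5 nearest genes of the table on each side of either locus, in order along the chromosome. Red marks called genes, open circles genes too low to test, bars the SE, and diamonds Art1, Art3 and Art5, which were not tested. Art5, at -1.32, is the lowest, and the called neighbours are Chrna10, Gm43599 and Stbd1.

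Art2a, Art2b and Art4, the other members of the family, were looked for by symbol and not found in the deposited table, so they were not analysed. Over 7 lists of genes around protein ADP-ribosylation, 56 were tested. 6 were called higher (10.7%) and 4 lower (7.14%), against 3.83% and 13.5% of all tested genes, and their median difference was 0.01. One of the lower calls, Lims1, rests on the filter described below. Enzymes that remove or break down ADP-ribose had 8 tested genes and a median of -0.11. Adprhl1, a relative of the ADP-ribosylarginine hydrolase, fell from 9.93 ± 1.15 to 7.35 ± 0.92 RPKM (SD, n = 3 each, adjusted p = 0.0497 with limma). Adprh itself, which removes ADP-ribose from arginine, had means of 5.64 ± 0.472 RPKM in WT and 4.95 ± 0.609 in KO (adjusted p = 0.303).

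Substrates and membrane repair genes had 12 tested genes with 2 called higher and a median of 0.12. Hspa5, the endoplasmic reticulum chaperone BiP and a reported ADP-ribosylation target, rose from 19.5 ± 0.386 to 27.7 ± 0.0781 RPKM (SD, n = 3 each, log2 difference 0.48, adjusted p = 0.00556 with limma), and the call was kept in all 12 alternative settings tried. Anxa2, an annexin of membrane repair, rose from 1.42 ± 0.186 to 2.07 ± 0.279 (adjusted p = 0.0436). Trim72, a membrane repair gene, stood at 30.7 and 31.8 RPKM (adjusted p = 0.745).

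Integrin, laminin and linker genes had 14 tested genes, 2 called higher and 1 lower, with a median of 0.01. The Art1 substrate Itga7 had a mean of 4.58 ± 0.37 RPKM in WT and 4.46 ± 0.529 in KO (log2 difference -0.03, adjusted p = 0.834). Parvb and Tln2, which link integrins to actin, rose from 1.08 ± 0.0497 to 1.79 ± 0.216 and from 1.58 ± 0.139 to 2.11 ± 0.145 RPKM (adjusted p = 0.0103 and 0.0471). Lims1, a linker of the same complex, is the 1 lower call. It stood at 1.35, 1.62 and 1.16 RPKM in WT replicates 2, 3 and 4 and at 0.604, 0.643 and 0.719 in KO replicates 1, 2 and 3. It passed the filter of 1 RPKM only through the group where it was high, so its call is no support for a change in this list.

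Genes that make GPI anchors, which Art1 and Art3 carry, had 7 tested genes and a median of -0.08. Pigb, a mannosyltransferase, fell from 6.52 ± 0.79 to 4.70 ± 0.245 RPKM and Pigk, a subunit of the transamidase that attaches the anchor, rose from 1.53 ± 0.0637 to 2.06 ± 0.153 (SD, n = 3 each, adjusted p = 0.0282 and 0.0345 with limma). NAD synthesis, which supplies the NAD+ that arginine transferases such as Art1 use, had 6 tested genes and 1 called. Nmrk2, a nicotinamide riboside kinase of muscle, stood at 7.22, 7.98 and 25.9 RPKM in WT replicates 2, 3 and 4 and at 45.5, 35.0 and 40.3 in KO, a log2 difference of 1.71 ± 0.40 (SE, adjusted p = 0.0253). WT replicate 4 lay between the other WT libraries and KO. The call was lost when WT replicate 2, WT replicate 3 or a KO replicate was left out, with an adjusted p of up to 0.0925. PARP genes, which modify proteins inside the cell, had 7 tested genes, a median of 0.04 and Parp2 lower, from 3.20 ± 0.188 to 2.41 ± 0.181 RPKM (adjusted p = 0.0369). Of 2 sirtuin-type genes tested, limma called none, 1 was lower at an unadjusted p under 0.05 and limma-voom on reads called none; Sirt2 stood at 5.13 ± 0.222 and 4.43 ± 0.102 RPKM (adjusted p = 0.141).

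Of the calls in these lists, that of Hspa5 held in all 12 alternatives. Parvb was lost in 1, without KO replicate 3 (adjusted p = 0.0536). The calls of Adprhl1, Parp2, Nmrk2, Tln2, Anxa2, Pigb and Pigk were each lost without WT replicate 3 and without each KO replicate in turn, and their highest adjusted p over all settings ran from 0.0925 for Nmrk2 to 0.18 for Adprhl1. Adprhl1, Parp2, Nmrk2 and Anxa2 were also lost without WT replicate 2, and Adprhl1, Parp2, Tln2 and Pigk without WT replicate 4. Adprhl1 and Parp2 were lost with both other scalings, Adprhl1 with a pseudocount of 0.1 (adjusted p = 0.0503) and Tln2 with no filter (adjusted p = 0.0567).

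**Figure D4:**
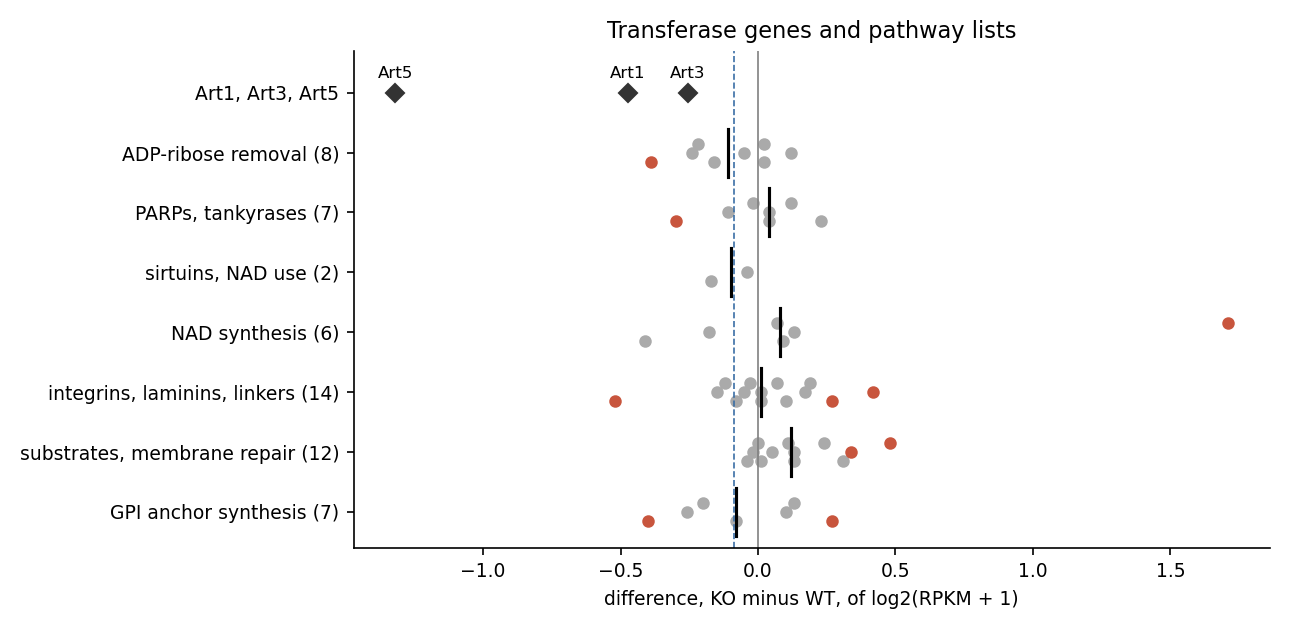
Difference between KO and WT on the log2(RPKM + 1) scale (horizontal axis) for the tested genes of each list, with Art1, Art3 and Art5 on top. Red marks called genes, black bars each list's median and the dashed line the median of all tested genes. Most listed genes lie within 0.5 of 0, while Nmrk2 is at 1.71 and Art5 at -1.32.

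Genes whose level followed Art5 most closely over the 6 libraries were Gm15179, Pwwp2a, Pabpn1, Mpp5 and Luc7l, with a Pearson r of 0.998 to 0.999 over 7479 genes of at least 1 RPKM on average. All libraries fall into 2 genotypes, so r is a description of a gap shared between them. Gm15179 lies opposite Des, the desmin gene, and stood at 24.1, 23.1 and 22.1 RPKM in WT replicates 2, 3 and 4 and at 8.98, 10.3 and 9.83 in KO replicates 1, 2 and 3. Des itself had means of 695 and 686 RPKM in WT and KO, and without strand their reads cannot be told apart where they overlap. The highest r for Art1 was 0.99 with Hnrnpa0, an RNA-binding protein gene, and for Art3 was 0.972 with Camk2g, a calcium/calmodulin kinase subunit.

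Some lists of markers of other cells were called lower or higher in part, and others overlapped between the genotypes. Over all tested genes, 13.5% were called lower and 3.83% higher. Of 7 Schwann cell markers in the table of 8 listed, the summed level was 31.7 to 50.5 RPKM in WT and 7.25 to 10.1 in KO, and all 4 tested were called lower. The 10 endothelial markers summed to 29.0 to 44.0 RPKM in WT and 25.3 to 27.6 in KO. Of 9 tested, 1 was called lower, near the share over all tested genes, and 8 differences were below 0. Of 7 adipocyte markers only Fabp4 was in the table, at 26.9 to 34.3 RPKM in WT and 19.1 to 22.3 in KO, and it was called lower (log2 difference -0.56). 9 stromal markers summed to 41.8 to 74.6 and 59.1 to 74.3 RPKM. Of 7 tested, 2 were called higher and all 7 differences were above 0. Of 8 T cell markers 1 was in the table, too low to test, at 0.233 to 0.335 RPKM in WT and 0.486 to 0.612 in KO. Summed levels overlapped for red blood cell markers (25.5 to 44.5 RPKM in WT and 18.3 to 110 in KO), smooth muscle and pericyte markers (65.5 to 107 and 72.0 to 90.3) and macrophage markers (3.50 to 7.76 and 4.54 to 7.75). They also overlapped for satellite cell markers (2.43 to 2.91 and 2.02 to 2.46) and tendon cell markers (2.62 to 4.92 and 3.92 to 5.04). Among the 14 skeletal muscle fibre markers 1 was called lower and none higher, with a median difference of 0.06. Among the 9 slow fibre markers none was called, with 8 differences below 0, 1 above and a median of -0.19. None of the markers in the table was at 0 in all libraries. Whether they have a part in the Art1, Art3 or Art5 values was not tested.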

How the data were processed

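RNA from gastrocnemius was measured in 3 WT and 3 KO libraries, made from fragmented mRNA with random hexamers, per the labels' protocols. The deposited values are RPKM of the authors' making; the header names no unit for them and the unit was inferred. Library totals were fitted so that values times gene length gave whole reads, within 0.02 of a read. GENCODE M21 lengths did so for 80.4% of the 11482 genes with 1 length there, including the 3 genes reported. For the other genes a length that gave whole reads was searched for, which brought the share to 99.99% of 11815 genes. That larger share is therefore no check of the unit. The authors' columns of log2 fold change, log2 CPM, F score and p-value are so named per the file headers. For the authors' test, the aligner, the counting program and the use of strand: not given in the sources used here. The submitters' processing notes name GRCm39.

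Tests used limma-trend (limma 3.58.1, R 4.3.3) on log2(RPKM + 1) with empirical Bayes moderation fitted on all 7574 genes that reached 1 RPKM in 3 or more libraries. The model held genotype alone, and p-values were adjusted by Benjamini-Hochberg over these genes at 0.05. SDs are of RPKM. The fit was tested on simulated data. Alternatives were a pseudocount of 0.1, no filter, equal medians, totals without the 10 most abundant genes, each replicate left out, a replicate block, limma-voom on recovered reads and an unadjusted p. The length of the longest coding transcript was chosen after seeing the data. Libraries of the same genotype differed by more than sampling noise (chi-square per degree of freedom at least 25.3). Named genes were the members, in each list up to 4 called members or the one with the smallest p, called neighbours and the 5 closest by Pearson r; Adprh, Itga7, Trim72, Des, Sdad1, Xndc1, Rnf121, Stim1, Xntrpc and Trpc2 are outside that rule and were chosen after their values were seen. The members and lists were chosen with earlier results of these data known. Python 3.11.15, pandas 2.3.3, numpy 2.4.6, scipy 1.17.1 and matplotlib 3.10.9 were used.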

Additional observations from a re-analysis of the deposited data

How the results depend on the processing

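The differences of Art1, Art3 and Art5 kept their direction in all alternatives tried. Art5 was at -1.32 and at -1.51 with a pseudocount of 0.1, -1.22 with equal library medians, -1.19 with totals without the 10 most abundant genes and -1.54 with limma-voom on recovered reads; Art1 was at -0.47 and at -0.37 and -0.33 with the 2 scalings. Leaving out each library in turn gave -1.37 to -1.27 for Art5, -0.54 to -0.44 for Art1 and -0.35 to -0.15 for Art3. The level order of Art1 and Art3 depended on the length: the log2 difference of Art1 from Art3 was 0.27 in WT and 0.06 in KO with all exons, and -0.03 (less than the SD of 0.264 over WT libraries with all exons) and -0.25 with the longest coding transcript, and Art3 minus Art5 moved from 0.95 to 1.96 in WT and from 2.01 to 3.05 in KO (2.25 with a pseudocount of 0.1). Counts of called genes were 290 higher and 1021 lower, and became 602 and 665 with equal medians, 680 and 613 with totals without the abundant genes, and 575 and 1957 at an unadjusted p. Without each library they ran from 96 to 335 higher and from 342 to 1144 lower. Of the listed genes, 6 were higher and 4 lower, 10 and 2 with each of the scalings, and 7 lower with no filter, with 1 to 6 higher and 0 to 3 lower without each library; the called neighbours ran from 0 to 3. Replicate numbers 2 and 3 occur in both genotypes, and libraries with the same number deviated together with correlations of 0.48 and 0.27. WT replicate 4 and KO replicate 1 had a correlation of 0.43, and the other pairs ran from -0.39 to -0.05. Deviations were taken from the mean of each genotype, which ties the pairs to each other. These correlations therefore cannot decide whether libraries were paired by number. A replicate block was also fitted, although WT replicate 4 and KO replicate 1 share their number with no library of the other genotype. Its differences therefore rest on replicates 2 and 3 of each genotype. In that fit 377 genes were higher and 1171 lower, and Art1, Art3 and Art5 were at -0.41, -0.30 and -1.30. Parp2, Tln2, Pigk and Chrna10 were not called with it (limma adjusted p = 0.105, 0.086, 0.0629 and 0.0626). Depth limits Art5 in KO most, at 468 to 489 reads per library.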
